A study of Homo sapiens with 16 samples.

Results

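Wide open regions are stretches of accessible chromatin that span 1 kb or more in Rh30 cells, a cell line derived from alveolar rhabdomyosarcoma. They were taken from the deposited table of experiment 6086 as every region whose end minus start is at least 1000 bp. Of 56949 regions, 3340 met that rule (5.86%) and 53609 were narrower. The assay was ATAC-seq, whose transposase cuts accessible DNA and leaves sequencing adapters there. The rule uses width alone and no change after treatment.

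PAX3-FOXO1 is a fusion transcription factor made by a chromosomal translocation. It joins the DNA-binding part of PAX3, a regulator of muscle precursors, to the activating part of FOXO1, and it keeps enhancers of myogenic genes open in this tumour. Open regions wider than a single nucleosome-free gap often cover active promoters or enhancers where several factors bind side by side.

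All cells, DMSO controls included, carried PAX3-FOXO1 with an FKBP tag, which dTAG47 couples to the ubiquitin ligase machinery so that the tagged protein is degraded. Experiment 6086 compared DMSO with 2, 4 and 24 h of 500 nM dTAG47, and a separate experiment, 6211, compared its own DMSO group with 0.5, 1 and 2 h of the same dose. Each of the 4 groups in each experiment had 2 libraries, 16 in all, named A and B after the column names. The question was which accessible sites need the fusion and how fast they respond. How long DMSO was applied is not in the labels, nor whether the libraries of a group were separate cultures, so that p-values measure only a spread that may be technical. Degradation of the fusion was not analysed here, and other effects of dTAG47 cannot be told apart from it. Libraries held 18038062 to 31308682 reads in regions in 6086 and 9934147 to 18275976 in 6211. Fewer cells with an open region and a less open region in each cell cannot be told apart in such bulk samples.

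The wide regions had a median width of 1199.5 bp, and the widest spanned 9857 bp. Most lay close to the threshold, since 2721 of them (81.5%) were under 1500 bp and 144 reached 2000 bp. They made up 18% of all base pairs in open regions. The distance from a wide region to its nearest open region had a median of 4191 bp, against 4766 bp for narrower regions, and 53.5% of wide regions had another within 5000 bp, against 50.8% of narrower ones. On chromosome 17, 303 of 3215 regions (9.42%) were wide, followed by chromosome 20 (7.88%) and chromosome 14 (7.61%). The lowest shares above 0 were on chromosome X (2.6%) and chromosome 13 (3.01%).

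Wide regions were dense as well as long. Levels are in CPM, read counts divided by the TMM-adjusted library total and scaled as usual. The median DMSO level per length was 47.4 CPM per kb in wide regions and 33.2 CPM per kb in narrower ones, and the median mean count per library was 1487 reads, against 241 in narrower regions. When all regions were ranked by mean count, 2773 wide regions (83%) fell in the top decile and 520 (15.6%) in the next, while 1 region lay as low as the seventh. Mean counts are not scaled by length, so the width rule itself favours regions of high count. All 3340 passed the filter on low counts.

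The share of each library's reads that fell in wide regions was close to the same in all groups. It was 23.3 and 23.3% in the DMSO libraries, 23.3 and 23.2% at 2 h, 23.2 and 23.6% at 4 h, and 23.7 and 23.4% at 24 h. The 24 h libraries lay above both DMSO libraries, while the 4 h libraries lay on either side of them. The means were 23.2 ± 0.106% at 2 h, 23.4 ± 0.325% at 4 h and 23.6 ± 0.219% at 24 h, against 23.3 ± 0.0141% in DMSO (SD, n = 2 each). These shares were not tested.

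**Figure D1:**
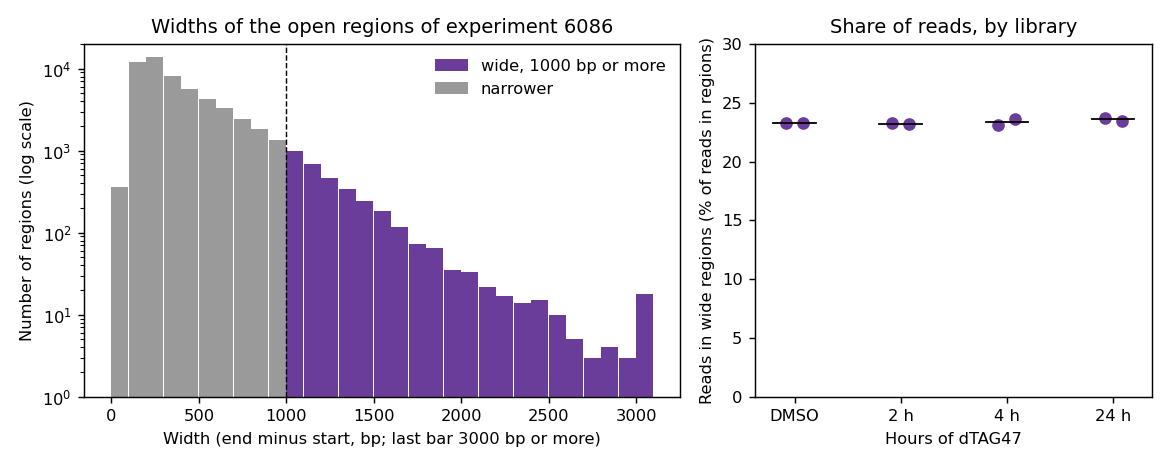
Left, number of open regions of experiment 6086 (log scale) by width in bp, with wide regions in purple, narrower ones in grey and the 1000 bp threshold as a dashed line. Right, percent of the reads in regions that fell in wide regions in each library (points) with the group mean (bar); all 8 libraries sit between 23.2 and 23.7%.

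After 2 h of dTAG47, 141 wide regions (4.22%) fell and 48 (1.44%) rose at an adjusted p under 0.05. Of all regions tested, 4.25% fell and 0.978% rose, so the share of losses among wide regions lay at the background and that of gains slightly above it. The changes were small. Only 15 wide regions (0.449%) lost 1.5-fold or more, 1 (0.0299%) lost 2-fold or more and 0 gained 1.5-fold. Among the 53605 narrower regions tested, 934 (1.74%) lost 1.5-fold or more, 193 (0.36%) lost 2-fold or more and 33 (0.0616%) gained 1.5-fold. The median log2 change of the lower calls was -0.28 in wide regions and -0.52 in narrower ones, and that of the higher calls was 0.20 and 0.35. Small changes pass less easily in narrower regions, whose median standard error was 0.11, against 0.057 in wide ones. Within the top decile by mean count the medians of the lower calls were -0.26 in wide and -0.28 in narrower regions. Those of the higher calls were 0.19 and 0.23 there. The counts rested on single libraries. Dropping 2 h library A left 71 losses and 10 gains, dropping 2 h library B left 90 and 26, and dropping DMSO library A left 88 losses. Dropping DMSO library B gave 229 losses and 108 gains.

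At 4 h, 161 wide regions (4.82%) were lower and 87 (2.6%) higher than in DMSO, against 5.44% and 1.75% of all regions. Losses of 1.5-fold or more were found at 27 wide regions (0.808%, against 2.45% of narrower regions), and losses of 2-fold or more at 5 (0.15%, against 0.729%). No wide region called higher gained 1.5-fold. The lower calls had a median log2 change of -0.29 in wide regions and -0.54 in narrower ones, but of -0.267 and -0.275 within the top decile by mean count. Dropping 4 h library B left 102 lower and 27 higher, and dropping 4 h library A left 41 higher.

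By 24 h, 459 wide regions (13.7%) were lower and 358 (10.7%) higher, both shares below those of all regions, of which 18.6% were lower and 13.6% higher. Losses of 1.5-fold or more numbered 55 (1.65%, against 6.98% of narrower regions) and losses of 2-fold or more 15 (0.449%, against 2.04%). Gains of 1.5-fold or more numbered 9 (0.269%, against 3.31%), and 0 gains reached 2-fold. Of the 53605 narrower regions tested, 1094 had called losses and 248 called gains of 2-fold or more. The balance of losses and gains at 24 h turned with library sizes alone in place of TMM (390 lower and 524 higher) and with DMSO library B dropped (482 and 507). The median log2 change over all wide regions was 0.0089, on a scale that TMM centres near 0. The standard deviation of the log2 change over wide regions was 0.11 at 2 h, 0.12 at 4 h and 0.19 at 24 h, against 0.20, 0.23 and 0.38 over narrower regions. Dropping 24 h library B left 238 higher.

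Setting 24 h directly against 2 h, 390 wide regions (11.7%) were lower and 386 (11.6%) higher, against 17.6% and 12.8% of all regions. The higher calls numbered 200 when 24 h library A was dropped, 231 for 24 h library B, 215 for 2 h library A and 193 for 2 h library B. With library sizes alone, 366 were lower and 524 higher, and with TMM factors from narrower regions 382 and 421. Comparisons with DMSO at the 3 times share the same DMSO libraries.

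The smaller changes of wide regions went together with their higher counts. Within the top decile of regions by mean count, which held 2773 wide and 2922 narrower regions, the standard deviation of the log2 change was nearly the same in both, at 0.099 and 0.10 at 2 h, 0.11 and 0.11 at 4 h, and 0.18 and 0.20 at 24 h. At 24 h, 13.6% of these wide regions were lower and 11.4% higher, against 15.7% and 11.9% of these narrower ones. Losses of 1.5-fold or more were found at 36 of the 2773 wide and 46 of the 2922 narrower regions. At 2 h, losses were called at 4.04% of the wide and 3.11% of the narrower regions in that decile, and gains at 1.55% and 1.98%. In the decile below, with 520 wide and 5174 narrower regions, the standard deviation at 24 h was 0.23 and 0.24, losses were called at 13.7% of wide and 17.5% of narrower regions, and gains at 7.31 and 12.3%. The spread was thus similar in wide and narrower regions of like count, while the share called at 24 h was lower in wide ones in both deciles. Neither difference was tested. The test was also finer in wide regions, where the median standard error of the 2 h log2 change was 0.057, against 0.11 in narrower ones.

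**Figure D2:**
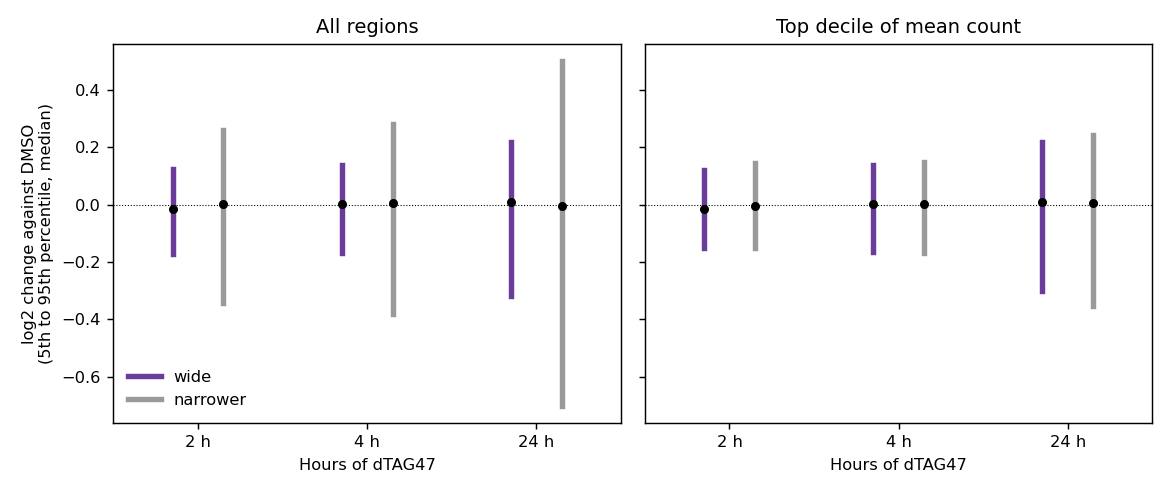
Log2 change against DMSO at 2, 4 and 24 h in wide (purple) and narrower (grey) regions, drawn as the median (point) and the range from the 5th to the 95th percentile over regions (bar). Over all regions (left) the grey bars are longer at each time, and within the top decile by mean count (right) the purple and grey bars nearly match.

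Among the wide regions, gains were more frequent the wider the region. At 24 h, 18.1% of regions of 2000 bp or more were higher (26 of 144), 14.1% of those from 1500 to below 2000 bp, and 9.74% of those from 1000 to below 1500 bp. The same order was found at 2 h, with 5.56, 1.89 and 1.14%, and at 4 h, with 6.94, 2.74 and 2.35%. Losses at 24 h lay close together in the same classes, at 14.6, 13.9 and 13.7%. The order of the gains did not go on below the threshold, where 11.3% were higher from 700 to below 1000 bp, 14.5% from 400 to below 700 bp, 15.5% from 200 to below 400 bp and 11.1% under 200 bp. Losses in those 4 narrower classes were 16.1, 21.2, 21.1 and 14%. Counts rise with width too, the median mean count being 3358 reads in the widest class and 1378 in the class nearest the threshold, and the part of depth in the order was not tested. The widest class is small, and its calls at 2 h were 6 lower and 8 higher.

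**Figure D3:**
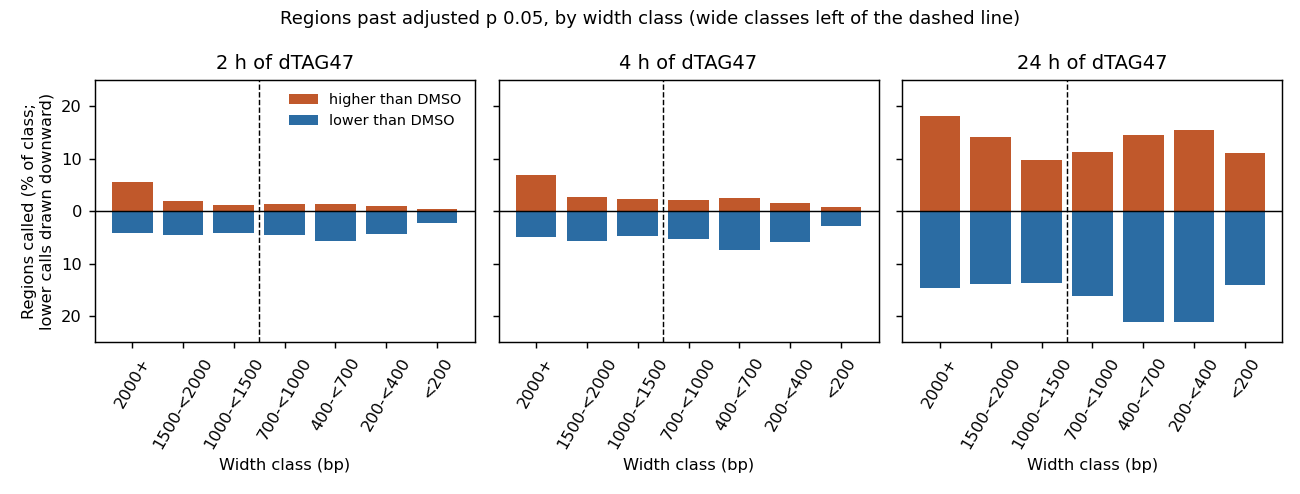
Percent of regions in each width class (bp, widest at the left, wide classes left of the dashed line) that were higher (orange, drawn upward) or lower (blue, drawn downward) than DMSO after 2, 4 and 24 h of dTAG47. At 24 h the orange bars shorten from 18.1% in the widest class to 9.74% in the class just above the threshold, while the blue bars of the 3 wide classes stay between 13.7 and 14.6%.

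The 8 largest losses at each time were taken from called regions averaging 30 reads or more whose treated libraries did not overlap those of DMSO. These 3 lists held 12 distinct regions. Positions are those of the deposited table, which follows hg19 as the human build in the submitters' processing notes. Regions go without gene names because hg19 annotation was not used here. The deepest loss at 24 h was at chr1:36070811-36071852, 1041 bp wide, which had 56.5 and 55.8 CPM in DMSO, 28.2 and 30.7 CPM at 2 h, 23.9 and 21.8 CPM at 4 h, and 15.2 and 16.5 CPM at 24 h. No treated library came near the DMSO libraries, and each later time lay below the one before. Its log2 change was -0.93 (SE 0.07) at 2 h, -1.30 at 4 h and -1.82 (SE 0.07, adjusted p = 4.4e-20) at 24 h, a 3.53-fold loss, and 24 h differed from 2 h by -0.89 (adjusted p = 3.4e-11).

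The next was chr11:19206644-19207718, with 29.9 and 25.2 CPM in DMSO, 14.4 and 13.1 CPM at 2 h, 11.6 and 11.5 CPM at 4 h, and 8.85 and 9.85 CPM at 24 h. At each time the libraries lay below those of the time before. The log2 change was -0.99 (SE 0.09, adjusted p = 5.5e-10) at 2 h and -1.55 (SE 0.09, adjusted p = 1.5e-15) at 24 h. The largest loss at 2 h was at chr7:159004245-159005271, with 45.8 and 42.2 CPM in DMSO, 22.1 and 21.7 CPM at 2 h, 17.7 and 16.1 CPM at 4 h, and 16.3 and 15.9 CPM at 24 h. Its log2 change of -1.0035 (SE 0.07) at 2 h made it the only wide region to lose 2-fold by then. Its 4 h and 24 h libraries overlapped, with log2 changes of -1.38 and -1.44 against DMSO.

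A stronger region, chr2:18334900-18336507, 1607 bp wide, had 107 and 97.1 CPM in DMSO, 59.1 and 61.0 CPM at 2 h, 52.9 and 49.96 CPM at 4 h, and 41.0 and 40.9 CPM at 24 h. It was lower than DMSO at all 3 times, with log2 changes of -0.76, -0.98 and -1.31 (SE 0.05, adjusted p = 2.7e-19 at 24 h). At chr10:103529965-103531230 the loss went on well after 2 h. That region had 108 and 109 CPM in DMSO, 71.7 and 71.4 CPM at 2 h, 53.3 and 53.2 CPM at 4 h, and 44.6 and 46.0 CPM at 24 h, and 24 h differed from 2 h by a log2 change of -0.66 (adjusted p = 5.6e-12).

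The other 7 lay at chr12:30263222-30264386, chr16:89409873-89410875, chr1:226997602-226998707, chr1:23134729-23135775, chr9:84440818-84441970, chr9:133547657-133548966 and chr11:19373751-19374852. Their log2 changes at 24 h ran from -1.27 to -0.80. The shallowest of these, chr11:19373751-19374852, stood at -0.70 at 2 h, -0.86 at 4 h and -0.80 at 24 h. It was the only one of the 12 whose 24 h level did not differ from that at 2 h at an adjusted p under 0.05 (log2 change -0.11, adjusted p = 0.19). The 12 were 1002 to 1607 bp wide, so none of them belonged to the 144 regions of 2000 bp or more.

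Gains were shallower, and the largest came at 24 h. The 8 largest gains at each time gave 22 distinct regions over the 3 times. At 24 h the list was led by chr17:17288572-17289774, with 35.7 and 35.3 CPM in DMSO, 39.2 and 37.5 CPM at 2 h, 39.8 and 41.1 CPM at 4 h, and 62.4 and 62.8 CPM at 24 h. The 24 h libraries stood well above the other 6, and the log2 change was 0.82 at 24 h (SE 0.06, adjusted p = 1.3e-13), against 0.11 at 2 h (adjusted p = 0.39). At chr17:80342877-80344435 DMSO had 34.1 and 36.2 CPM, 2 h had 37.1 and 34.9 CPM, 4 h had 39.9 and 42.5 CPM and 24 h had 61.6 and 61.2 CPM. Its 2 h libraries overlapped those of DMSO (log2 change 0.03, adjusted p = 0.88). It was called higher at 4 h (0.23, adjusted p = 0.019), and at 24 h it reached 0.80 (SE 0.06, adjusted p = 5.3e-13).

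Another late gain, chr7:25765738-25766777, had 37.9 and 37.3 CPM in DMSO, 35.4 and 36.7 CPM at 2 h, 41.4 and 40.1 CPM at 4 h, and 63.0 and 63.4 CPM at 24 h. Its 2 h libraries lay below both DMSO libraries without passing the test (log2 change -0.059, adjusted p = 0.71), and 24 h exceeded 2 h by 0.81 (adjusted p = 6.2e-13). The other 5 largest gains at 24 h were chr20:61147137-61148506 (log2 change 0.75), chr2:1735175-1736224 (0.73), chr5:1152748-1154062 (0.67), chr2:233464428-233465435 (0.64) and chr7:150668228-150669496 (0.61). All of these 8 except chr17:17288572-17289774, chr2:1735175-1736224 and chr7:25765738-25766777 were already called higher at 4 h, with log2 changes of 0.21 to 0.25 (adjusted p = 0.013 to 0.034). Of the 8, only chr2:233464428-233465435 had already passed the test at 2 h, with 33.6 and 35.5 CPM, against 27.4 and 28.5 CPM in DMSO (log2 change 0.30, adjusted p = 0.0026). That early call missed the threshold with 2 h library B dropped (adjusted p = 0.082).

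**Figure D4:**
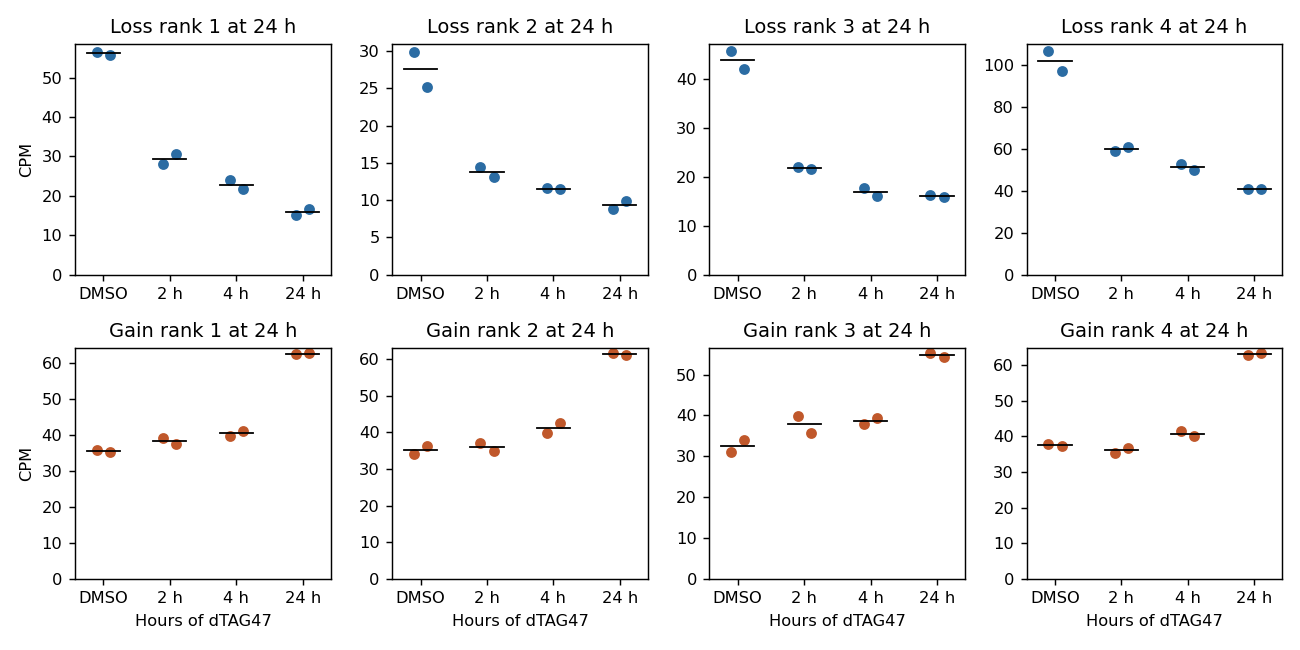
CPM in each library (points) and group mean (bar) for the 4 wide regions with the largest losses (top row, blue: chr1:36070811-36071852, chr11:19206644-19207718, chr7:159004245-159005271, chr2:18334900-18336507) and the 4 with the largest gains (bottom row, orange: chr17:17288572-17289774, chr17:80342877-80344435, chr20:61147137-61148506, chr7:25765738-25766777) at 24 h in experiment 6086. The losses are already large at 2 h, whereas the gains at 2 and 4 h are small beside those at 24 h.

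The early gains were small, at most 1.24-fold at 2 h. At 2 h the list was led by chr19:1262346-1263477, with 35.9 and 37.7 CPM, against 31.2 and 28.5 CPM in DMSO, a log2 change of 0.31 (SE 0.07, adjusted p = 0.0032). It missed the threshold when 2 h library B (adjusted p = 0.085) or DMSO library B (adjusted p = 0.076) was dropped. The widest region on that list was chr20:60930567-60933806, 3239 bp wide, with 151 and 146 CPM at 2 h, against 123 and 125 CPM in DMSO, a log2 change of 0.26 (SE 0.05, adjusted p = 2.1e-04). It remained higher at 24 h (0.19, adjusted p = 0.0011). At 4 h the largest gain was at chr12:110157243-110158741, with 65.9 and 66.9 CPM, against 49.7 and 56.1 CPM in DMSO (log2 change 0.32, adjusted p = 1.4e-04). The neighbouring wide regions chr20:62477393-62478482 and chr20:62478620-62479709 both rose at 2 h, by log2 changes of 0.24 and 0.29, and the second call missed the threshold with 2 h library A dropped (adjusted p = 0.074). At 24 h the first stood at 0.51 (adjusted p = 1.5e-10) and the second at 0.10 (adjusted p = 0.21), a difference that was not tested.

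The widest regions were clustered on chromosome 12. All of the 5 widest, and 7 of the 10 widest, lay in the stretch from 57 to 59 Mb, which was singled out after its widths had been seen. It held 213 open regions, of which 54 (25.4%) were wide, and 19 of the 144 regions of 2000 bp or more. Rh30 is known to carry extra copies of a segment of chromosome 12 around CDK4, and copy number was not analysed here. The median DMSO level of its wide regions was 99.6 CPM per kb, against 47.1 CPM per kb in the other wide regions.

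The widest of all, chr12:57628783-57638640, had 761 and 732 CPM in DMSO, 758 and 740 CPM at 2 h, 708 and 722 CPM at 4 h, and 700 and 710 CPM at 24 h. Its libraries at 4 and 24 h lay below those of DMSO, but no comparison passed the test (log2 change -0.082 at 24 h, adjusted p = 0.072). In contrast chr12:58127694-58132159 had 606 and 613 CPM in DMSO, 663 and 654 CPM at 2 h, 662 and 683 CPM at 4 h, and 716 and 712 CPM at 24 h, and it rose at 4 h (log2 change 0.14, adjusted p = 0.0069) and at 24 h (0.23, SE 0.03, adjusted p = 2.8e-06). Of the other 3 widest, only chr12:57606540-57612726 was called against DMSO, lower at 24 h by a log2 change of -0.10 (adjusted p = 0.038).

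Within the chromosome 12 stretch, 19 of the 54 wide regions (35.2%) were lower and 2 (3.7%) higher at 24 h. The shift was small, with a median log2 change of -0.0475 over these wide regions at 24 h. Of the 159 narrower regions of the stretch 22% were lower and 12.6% higher, beside 18.6% and 13.6% of all regions tested. At 2 h, 1 wide region of the stretch was lower and 5 (9.26%) were higher, against 7.55% higher among its narrower regions, and at 4 h 1 was lower and 3 were higher (5.56%, against 2.52%). None of these differences was tested. Leaving the stretch out gave 140 lower and 43 higher wide regions at 2 h, 160 and 84 at 4 h, and 440 and 356 at 24 h. Among regions of 2000 bp or more outside it, 24 of 125 were higher at 24 h (19.2%) and 16 lower.

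The strongest wide region per length lay elsewhere, at chr1:121484037-121485490 beside the centromere of chromosome 1, with 458 CPM per kb in DMSO. It had 713 and 618 CPM in DMSO, 729 and 752 CPM at 2 h, 635 and 611 CPM at 4 h, and 585 and 581 CPM at 24 h. The DMSO libraries differed by more than those of any other group there, and the 4 h libraries overlapped them. Its log2 change was 0.16 at 2 h (adjusted p = 0.025) and -0.19 at 24 h (adjusted p = 6.8e-04). The other 4 strongest per length were on chromosome 12, at 291 to 341 CPM per kb, and none of them was called against DMSO at any time.

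On most chromosomes the shares of wide regions called at 24 h lay below the 18.6% lower and 13.6% higher of all regions. Losses were most frequent on chromosome 17, at 63 of 303 wide regions (20.8%, against 19% of the narrower regions there). Chromosome 10 followed with 24 of 129 (18.6%, against 20.1%). The lowest shares of losses were on chromosome 18, at 1 of 32 (3.12%, against 17.8%), and chromosome 21, at 2 of 48 (4.17%, against 22.8%). Gains were called at 29 of 158 wide regions on chromosome 20 (18.4%, against 15.9%), 25 of 145 on chromosome 16 (17.2%, against 12.3%) and 9 of 48 on chromosome 21 (18.8%, against 14.3%). On chromosome 6, 5 of 143 wide regions were higher (3.5%, against 14.2%). On chromosome 20 gains were also called at 7 of 158 wide regions at 2 h (4.43%, against 1.73% of its narrower regions and 0.978% of all regions). These shares were not tested against each other.

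The 3 narrowest members and the 3 widest regions left out differ by a single base pair in width. The members, all 1000 bp, were chr1:20142090-20143090 with mean levels of 72.0 CPM at 2 h, 71.4 CPM at 4 h and 64.9 CPM at 24 h, against 74.3 CPM in DMSO, chr1:179923431-179924431 with 49.3, 48.7 and 52.5 CPM, against 48.8 CPM, and chr11:17735477-17736477 with 84.5, 88.6 and 91.9 CPM, against 86.7 CPM. Those left out, each 1 bp narrower, were chr1:23242386-23243385 with 41.4, 37.8 and 30.1 CPM, against 44.0 CPM in DMSO, chr1:114884440-114885439 with 43.4, 39.8 and 24.8 CPM, against 50.2 CPM, and chr11:46384656-46385655 with 65.2, 67.0 and 65.3 CPM, against 64.4 CPM. Of these 6, chr1:114884440-114885439 moved furthest from its DMSO level.

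Most narrower regions near a called wide region were not called themselves, but calls in the direction of the wide region were more frequent there than near wide regions that were not called. Within 10 kb of the 141 wide regions that fell at 2 h lay 240 narrower regions, of which 13.3% were lower and 0% higher, against 2.12% lower around wide regions that were not called. At 4 h the share was 16.1%, against 3.27%, and at 24 h it was 28.6%, against 15.3%. Over all narrower regions, 4.25, 5.48 and 18.9% were lower at the 3 times. Around the wide regions higher at 24 h, 23% of 660 narrower neighbours were higher, against 12% around those not called and 13.8% of all narrower regions. At 2 h the same shares were 3.54% (4 of 113), 2.07% and 0.95%. Neighbours share libraries, and these shares are a description without a test.

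Experiment 6211 measured the first 2 h in other libraries with its own DMSO group. Most of its regions are 400 bp wide, so that it resolves parts of a wide region. Of its 40844 regions, 4160 (10.2%) had at least 50% of their length inside a wide region of 6086. A single such part was found in 2549 wide regions, 2 parts in 751, 3 in 35 and 4 in 1, and 4 wide regions held none.

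At 0.5 h, 1 part was lower and 0 were higher, against 0.00735% and 0% of all regions of 6211. That part, chr1:36071004-36071404, lies inside the region with the deepest loss at 24 h. In edgeR 235 of the 4160 parts had an unadjusted p under 0.05 at 0.5 h, beside 2723 of all 40844 regions. DESeq2 also called 1 part lower and 0 higher at 0.5 h. At 1 h, 32 parts (0.769%) were lower and 9 (0.216%) higher, against 2.47% and 0.22% of all regions. At 2 h, 123 parts (2.96%) were lower and 73 (1.75%) higher, against 4.92% and 1.97%.

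These counts also rested on single libraries. At 0.5 h, dropping either treated library or DMSO library A left 0 lower calls, and dropping DMSO library B gave 14 lower and 26 higher. At 1 h, dropping treated library A gave 92 lower and 22 higher, and dropping treated library B left 6 and 0. Dropping DMSO library A left 17 and 0 at that time, and dropping DMSO library B gave 98 and 190. At 2 h, dropping treated library A left 41 higher and dropping treated library B left 49 lower and 12 higher, while 25 were higher with DMSO library A dropped and 110 with DMSO library B dropped.

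The wide regions called at 2 h in 6086 had log2 changes of the same sign in 6211 at most of their parts, although fewer parts passed the test before 2 h than at 2 h. The 141 that fell held 159 parts, whose median log2 changes were -0.16, -0.20 and -0.31 at 0.5, 1 and 2 h. At 0.5 h 97.5% of these parts were below 0, at 1 h 92.5% and at 2 h 98.1%, and 1, 29 and 77 of the 159 were called lower at these times and 0 higher. By library, the median was -0.17 and -0.14 at 0.5 h, -0.16 and -0.24 at 1 h, and -0.28 and -0.29 at 2 h, while the DMSO libraries stood at 0.054 and -0.054 around their own mean. All 6 treated libraries thus lay below both DMSO libraries.

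The 48 wide regions that rose held 57 parts, with medians of 0.079, 0.17 and 0.23 at the same times. Of these, 73.7% were above 0 at 0.5 h and 96.5% at 2 h, and 0, 3 and 20 of the 57 were called higher at the 3 times and 0 lower. The library medians were 0.058 and 0.11 at 0.5 h, 0.14 and 0.17 at 1 h, and 0.23 and 0.23 at 2 h, above those of DMSO at -0.027 and 0.027. Parts of the 3151 wide regions not called at 2 h had medians of -0.0091, 0.018 and -0.026, and of these 3944 parts 46 were lower and 53 higher at 2 h.

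**Figure D5:**
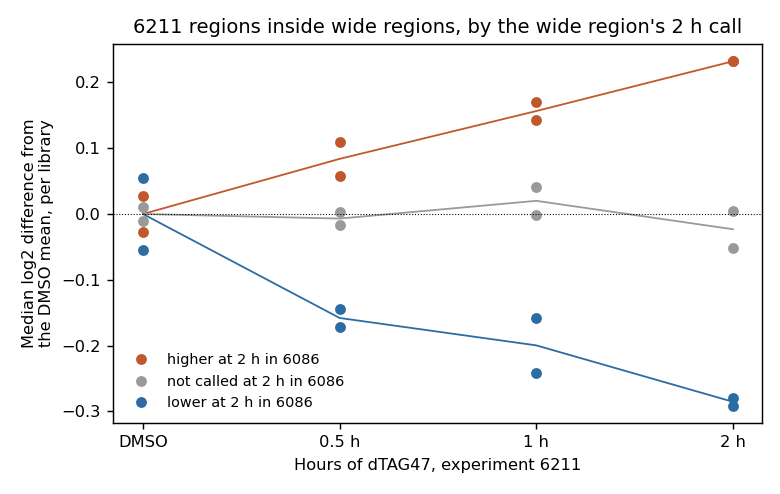
Median log2 difference from the DMSO mean in each library of experiment 6211 (points; lines join group means) for regions inside the wide regions that were higher (orange), not called (grey) or lower (blue) at 2 h in experiment 6086. The blue points of all 6 treated libraries lie below the DMSO points and the orange ones above them, and both sets move further from 0 up to 2 h.

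Single parts show the early course at the regions described above. At chr1:36071004-36071404, DMSO had 55.3 and 51.3 CPM, 0.5 h had 32.2 and 35.7 CPM, 1 h had 32.0 and 27.1 CPM and 2 h had 15.8 and 16.9 CPM. No 2 groups overlapped, though the 0.5 and 1 h libraries nearly met, and the log2 change was -0.65 at 0.5 h (adjusted p = 0.015), -0.86 at 1 h and -1.71 at 2 h (adjusted p = 1.5e-09), deeper than the -0.93 of the whole wide region at 2 h in 6086. The part chr11:19206888-19207288 had 21.4 and 16.6 CPM in DMSO, 14.9 and 13.1 CPM at 0.5 h, 9.10 and 7.80 CPM at 1 h, and 7.36 and 6.29 CPM at 2 h. It passed the test at 1 h (log2 change -1.19, adjusted p = 5.1e-05) but not at 0.5 h (-0.45, adjusted p = 0.43).

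Some other deep losses had parts that passed from 1 h on. The log2 changes at chr7:159004554-159004954 were -0.34, -0.65 and -1.19 at 0.5, 1 and 2 h, and those at chr2:18335512-18335912 were -0.40, -0.62 and -0.85, with the last 2 of each called. At chr10:103530475-103530875 and chr16:89409967-89410367 the change first passed at 2 h (-0.50 and -0.32, adjusted p = 1.1e-04 and 0.015). Among the 8 largest gains at 24 h, a part had passed by 2 h at chr2:233464825-233465225 (0.43, adjusted p = 0.0071) and chr20:61147211-61147611 (0.40, adjusted p = 0.038). No part of the other 6 had, among them chr17:17288812-17289212 (0.25, adjusted p = 0.17) and chr7:25765761-25766161 (0.11, adjusted p = 0.53).

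For the 787 wide regions that held more than 1 part, the 1611 parts were tested against the rest of their own wide region at 2 h of 6211 with edgeR's diffSpliceDGE. No part passed the test (0 of 1611 at an adjusted p under 0.05, 30 at an unadjusted p under 0.05), and limma's diffSplice called 1. That was chr12:57521587-57521987 in chr12:57520564-57523802, whose log2 change was 0.52 below that of the rest (-0.52, adjusted p = 0.040 in limma). The edgeR value is instead the change of a part minus that fitted for its wide region from all its parts, that part included. On this scale the same part stood at -0.17 and did not pass the test, so the sizes from edgeR and limma cannot be compared. In edgeR the lowest p was at chr14:105955763-105956163, 0.35 above the fit for the whole of chr14:105955393-105958281 (adjusted p = 0.51). The other 5 parts of lowest p differed from the fits for their whole regions by -0.38 to 0.53. The spread between the highest and the lowest log2 change within a wide region had a median of 0.15 and a maximum of 0.79, beside a median standard error of 0.13 for a part. The most changed part at 2 h in 6211 went further than the whole wide region at 2 h in 6086 in 80 of the 141 regions that fell and in 25 of the 48 that rose. The part was picked by its own change and came from other libraries, so these counts cannot tell parts from the whole.

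The authors' deposited table gave fewer calls, again with more losses than gains. By the authors' deposited table, 84 wide regions were lower and 15 higher at 2 h (2.51% and 0.449%, against 2.33% and 0.123% of all regions). At 4 h the authors' deposited table had 112 and 27 (3.35% and 0.808%, against 3.37% and 0.327%), and at 24 h 336 and 225. By the authors' deposited table, 10.1% of wide regions and 12.5% of all regions were lower at 24 h, and 6.74% and 7.37% were higher.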

How the data were processed

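The deposited count tables, 1 for each experiment, hold whole-number read counts per open region. The submitters' processing notes list deepTools, DiffBind, DESeq2, Genrich 0.6.1, Bowtie2 and Trimmomatic 0.32, and the builds dm3 and hg19, without saying what each was used for. How duplicates, transposase shifts and peak merging were handled is not stated there. The authors' deposited comparison tables hold size-factor-normalised signal columns (not used), log2 fold changes and p-values, and the last 2 were read only to count the authors' calls.

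A column's group comes from the treatment and time in its name. The test over all regions was that of edgeR 4.0.16 under R 4.3.3 (TMM, filterByExpr, quasi-likelihood test with Benjamini-Hochberg adjustment at 0.05), fitting the 8 libraries of each experiment together, which leaves 4 residual degrees of freedom. Wide regions were counted afterwards. The filter kept 56945 of 56949 regions in 6086 and all 40844 in 6211, and coefficients of variation were 3.48% and 5.96%. Standard errors are the log2 change divided by the square root of F. TMM would not show a change common to all regions. Parts of wide regions were found with GenomicRanges 1.54.1 by at least 50% of their length. The scripts were tested on simulated data.

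Regions were named by rule: in each comparison with DMSO, the 8 lowest and 8 highest log2 changes among called wide regions averaging 30 reads or more whose treated libraries did not overlap those of DMSO, plus the 5 widest, the 5 with most DMSO counts per kb, 3 on either side of the threshold and the 6 parts with the lowest p. Members, lists and tests were chosen with earlier results of these data known. Alternatives were DESeq2 1.42.0, limma 3.58.1 for parts, other scalings, no filter, only the groups compared, each library left out, a replicate block, other width thresholds and parts wholly inside. No pair of replicate libraries agreed within sampling noise (chi-square per degree of freedom 1.34 to 2.66).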

Additional observations from a re-analysis of the deposited data

Results flagged for a closer look

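The level of some wide regions differed between 24 and 2 h in experiment 6086. By the direct test of 24 h against 2 h, 390 wide regions (11.7%) were lower at 24 h and 386 (11.6%) higher. Over all regions tested 17.6% were lower and 12.8% higher, so both shares among wide regions lay below the background.

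Among the named regions, 2 were called higher than DMSO at 2 h and lower at 24 h. At chr12:58461222-58462325, levels were 31.4 and 24.4 CPM in DMSO, 32.6 and 33.4 CPM at 2 h, 28.5 and 28.7 CPM at 4 h, and 19.3 and 19.6 CPM at 24 h, and 24 h differed from 2 h by a log2 change of -0.763 (adjusted p = 3.5e-09). Its 2 h gain (log2 change 0.26, adjusted p = 0.048) fell to 0.072 (adjusted p = 0.70) without DMSO library B. At chr1:121484037-121485490, 24 h differed from 2 h by -0.346 (adjusted p = 1.1e-07). In 6211 the part chr1:121484617-121485017 had 639 and 726 CPM at 0.5 h, 522 and 447 CPM at 1 h, and 723 and 989 CPM at 2 h, against 509 and 713 CPM in DMSO, so libraries of 1 group differed widely there.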

How the results depend on the processing

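Over 204 recomputed values of the 21 main results, 147 stayed within their bound and 57 moved further. The bound was 1.5 times the reported value for counts. For shares at other width thresholds it was the 95% binomial interval of the reported share. No count or share has a direction of its own to turn. The balance of losses and gains did turn at 24 h, to 390 lower and 524 higher with library sizes alone and to 482 and 507 without DMSO library B. For 24 h against 2 h, where 390 were lower and 386 higher, it became 366 and 524 with library sizes alone, and 382 and 421 with TMM on narrower regions. Of 592 recomputed log2 changes of named regions, 16 missed the threshold, all of them gains at 2 h at 6 regions, and 0 turned direction. With library sizes alone, 124 wide regions were lower and 73 higher at 2 h. DESeq2 called 84 lower and 15 higher at 2 h, 27 higher at 4 h, 225 higher at 24 h and 170 higher at 24 h against 2 h. In 6211 DESeq2 called 19 parts lower and 0 higher at 1 h, and 63 and 17 at 2 h. When each fit held just the groups compared, 24 wide regions were higher at 2 h and 41 at 4 h, and 0 parts were higher at 1 h and 32 at 2 h. A loess offset gave 37 parts lower and 5 higher at 1 h, and limma found 1 part unlike the rest of its region. With a threshold of 1500 bp the shares higher were 2.75% at 2 h, 3.72% at 4 h and 15% at 24 h, and with 2000 bp they were 5.56, 6.94 and 18.1%, while at 700 bp 15.2% were lower at 24 h.

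Leaving out each library in turn gave 71 to 229 lower and 10 to 108 higher wide regions at 2 h, 102 to 219 and 27 to 114 at 4 h, and 355 to 482 and 238 to 507 at 24 h. For 24 h against 2 h it gave 280 to 332 lower and 193 to 231 higher. For parts it gave 0 to 14 lower and 0 to 26 higher at 0.5 h, 6 to 98 and 0 to 190 at 1 h, 49 to 172 and 12 to 110 at 2 h, and 0 to 1 unlike the rest of their region. The causes of these moves were not tested.

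The letters A and B did not pair the samples, the correlation of deviations of same-lettered DMSO and treated libraries being -0.137 at 2 h, 0.154 at 4 h and -0.035 at 24 h. With a replicate block by letter, 128 wide regions were lower and 32 higher at 2 h, 151 and 64 at 4 h, and 436 and 333 at 24 h. For 24 h against 2 h the block gave 371 lower and 333 higher. In 6211 the block gave 1 lower and 0 higher part at 0.5 h, 36 and 12 at 1 h, 151 and 88 at 2 h, and 0 unlike the rest. With the 2 h letters crossed in the block, 155 were lower and 72 higher at 2 h.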
